A study of Mus musculus with 3 samples.

Results

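The genes described here are the TREM receptors Trem1, Trem2, Trem3, Treml2 and Treml4 and the adaptor Tyrobp, which encodes DAP12. The 6 genes were taken by symbol from the annotation carried in the transcript tables, and each symbol matched 1 gene identifier among the 55536 GENCODE M21 genes measured. The rule uses symbols and no measured value.

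The samples were 3 replicates of 1 group. They were bone-marrow-derived macrophages of strain C57BL/6J. The cells received lipid A, the membrane-anchoring part of bacterial lipopolysaccharide, at 100 ng/ml for 12 hours, were washed and kept without it for 12 hours, and received the same dose once more, this time for 180 minutes. Other label fields call the same agent lipoprotein A and class it as a protein, so the labels disagree on its name. The labels number the samples as biological replicates 1, 2 and 3, each with 1 technical replicate. All 3 carry the same donor record, sex and age were not collected, and the labels do not say whether the replicates were separate cultures or animals, so what the spread between them covers is not known. Polyadenylated RNA from whole-cell extracts was sequenced. Unexposed cells and cells exposed once were not analysed here, so no value below is an effect of lipid A.

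TREM receptors are surface proteins of myeloid cells with 1 immunoglobulin-like domain outside the cell. Those that pair with DAP12 have a short tail that carries no signalling motif of its own. A charged residue in the membrane span pairs TREM-1, TREM-2 and TREM-3 with DAP12, whose ITAM motif is phosphorylated by Src-family kinases and then recruits the kinase Syk. TREM-1 is known for amplifying inflammatory responses of neutrophils and monocytes, and TREM-2 for sensing lipids and dying cells in tissue macrophages, microglia and osteoclasts.

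The gene tables held 23377091, 36824106 and 37685712 expected counts in replicates 1, 2 and 3. A count of 0 would therefore allow up to 0.128, 0.0815 and 0.0796 CPM, that is counts scaled to the library total with no correction for length, taking 3 counts as the floor. TPM is a level corrected for transcript length and library size. All 10 macrophage markers, among them Lyz2, C1qb and Cd68, were at 1 TPM or more in every replicate, beside 44.3% of 22028 protein-coding genes. The summed level of these markers was 18753, 20496 and 21306 TPM. Neutrophil markers summed to 12.5, 108 and 11.1 TPM, so replicate 2 stood apart there. Most of that sum came from S100a8 (6.84, 39.4 and 5.36 TPM) and S100a9 (4.20, 58.0 and 5.10 TPM). Ngp (0.39, 7.78 and 0.28 TPM) and Ltf (0.14, 1.73 and 0 TPM) were also highest in replicate 2. Camp, Mpo and Cxcr2 were highest there too, by small margins and under 1 TPM. Elane had counts in replicate 3 only, and Ly6g and Retnlg had 0 counts in all 3 replicates. None of the dendritic cell markers or of the T and NK cell markers reached 1 TPM in all 3 replicates, beside the same 44.3% of protein-coding genes.

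Tyrobp, Trem2, Treml2 and Treml4 were at 1 TPM or more in all 3 replicates, which is 4 of the 6 genes, beside 44.3% of 22028 protein-coding genes. Trem3 passed that level in replicate 1 only, and Trem1 in none. DAP12 RNA was among the most abundant of the cell, and TREM-2 was the receptor with by far the most RNA. TREM-1 rested on 16, 7 and 23 expected counts and TREM-3 on 12, 1 and 6. Of these only TREM-3 fell under the counting floor, in replicate 2. In bulk RNA, fewer cells of a type and less RNA per cell cannot be told apart.

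**Figure D1:**
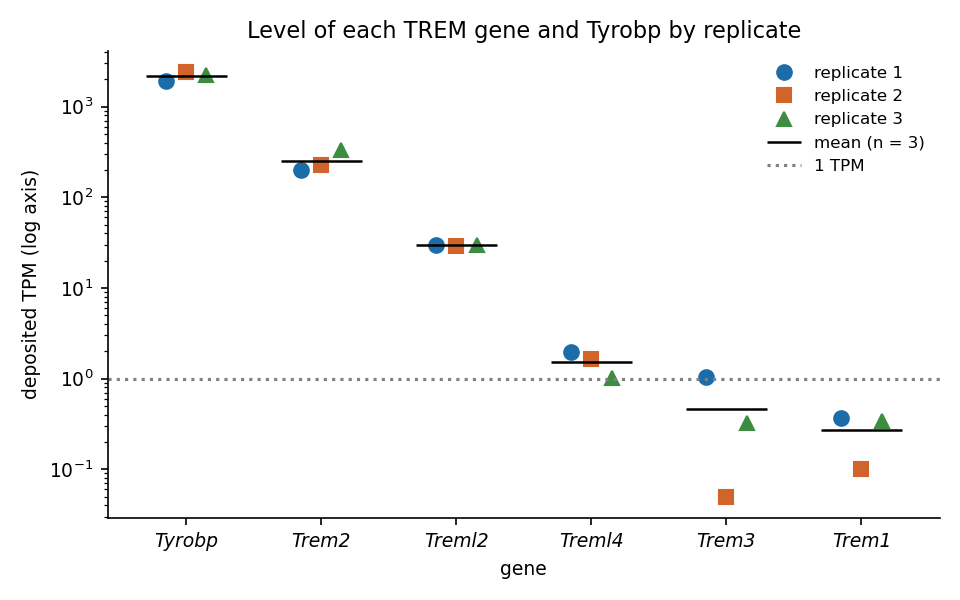
Deposited TPM (log axis) of the 6 genes in each of the 3 replicates, with the mean as a horizontal line and 1 TPM as a dotted line. Tyrobp sits near 2177 TPM, Trem2 near 253 and Treml2 near 29.5, while Trem3 and Trem1 scatter between 0.05 and 1.03 TPM.

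Tyrobp had 1905, 2408 and 2218 TPM in replicates 1, 2 and 3, from 10247, 19955 and 18218 expected counts. The mean was 2177 ± 254 TPM (SD, n = 3), which placed it 40th in level among protein-coding genes, above 99.8% of them. Replicate 1 was lowest and replicate 2 highest, 1.26-fold apart. The gene lies on chromosome 7 at 30413760 to 30417585 of GRCm38, on the plus strand. Its neighbour Hcst, which encodes the related adaptor DAP10 with a PI3-kinase motif in place of an ITAM, is on the opposite strand with 126 bases between their ends. The gene records do not overlap.

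Nearly all Tyrobp signal was assigned to Tyrobp-202. Its annotated coding sequence of 421 bases is not a multiple of 3, so it gives no protein length. It took 99.4 ± 0.0482% of the gene's TPM (SD, n = 3). Tyrobp-203, annotated as a target of nonsense-mediated decay, took 0.602%. Tyrobp-201, of 114 codons, was listed at 0, but it has no 31-base word of its own, so reads of this transcript could hardly be told from those of Tyrobp-202.

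Fcer1g, the ITAM adaptor of Fc receptors, was the more abundant adaptor. It had 3947, 3320 and 3332 TPM, and Hcst had 14.7, 24.5 and 19.7 TPM. Within each replicate Tyrobp stood at 0.483, 0.725 and 0.666 times Fcer1g, a log2 ratio of −0.70 ± 0.31 (SD, n = 3), negative in all 3 replicates. Against Hcst it was 129, 98.4 and 113 times as high. Cd247, the T cell receptor zeta chain, averaged 0.627 TPM. The ratios of Tyrobp to Fcer1g and to Hcst were chosen after their values were seen.

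Trem2 had 198, 228 and 335 TPM, from 2609, 4370 and 5678 expected counts. Its mean was 253 ± 71.9 TPM (SD, n = 3), above 97.4% of protein-coding genes, and replicate 3 was 1.69-fold above replicate 1. On the CPM scale the same replicates had 112, 119 and 151, a gap of 1.35-fold. Exact Poisson 95% intervals for these were 107 to 116, 115 to 122 and 147 to 155 CPM. The interval of replicate 3 did not overlap the others, although such intervals cover counting error only.

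Trem2 has 4 annotated transcripts, and the splice junctions printed here tell 3 of them apart from each other. Each run is 30 bases of the plus strand of chromosome 17 in GRCm38, with the last bases of the upstream exon in lower case and the first bases of the downstream exon in capitals.
Trem2-201: acacagcacctccagGAATCAAGAGACCTC
Trem2-202: acacagcacctccagGCAGGTTTCATCCTG
Trem2-204: tggaggtgctggaggTGCTGAAGTCACCAT
The Trem2-201 and Trem2-202 runs leave the same end of exon 3, at 48351191, and differ in where exon 4 begins, at 48351746 in Trem2-201 and at 48351691 in Trem2-202. The added 55 bases are not a multiple of 3 and shift the reading frame, giving 227 codons in Trem2-201 and 249 in Trem2-202. Trem2-203, a retained intron, carries the same junction as Trem2-201. Trem2-204 joins exon 2, ending at 48348807, to a last exon of 68 bases that starts at 48350491, and it has no annotated coding sequence.

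In the alignment table the 2 coding transcripts varied less between replicates than the noncoding Trem2-204. Trem2-201 had 154, 153 and 192 TPM and took 67.5 ± 10.3% of the gene's TPM (SD, n = 3). Trem2-202 had 38.7, 36.6 and 42.1 TPM and took 16.1 ± 3.50%. Trem2-204 had 4.02, 36.8 and 99.4 TPM, which is 2.03, 16.1 and 29.7% of the gene. Its expected counts were 17.2, 240 and 637.

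With Trem2-204 set aside, a choice made after its values were seen, Trem2 had 194, 191 and 235 TPM, with a mean of 207 ± 24.7 (SD, n = 3). Replicate 3 was then 1.23-fold above the lowest replicate. In the table made from FASTQ files the same sum was 123, 163 and 227 TPM, so replicate 3 stood 1.84-fold above replicate 1 there even without Trem2-204. The median expressed protein-coding gene was itself shifted in that table, by log2 −0.48, −0.19 and −0.03 in replicates 1, 2 and 3 against the alignment table. The FASTQ table gave Trem2-204 13.2, 5.71 and 47.8 TPM, so replicate 3 was highest in both tables while the order of replicates 1 and 2 turned round. Trem2-204 shares exon sequence with the coding transcripts and is short, at 526 bases. How far the assignment of shared reads sets its level was not tested.

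**Figure D2:**
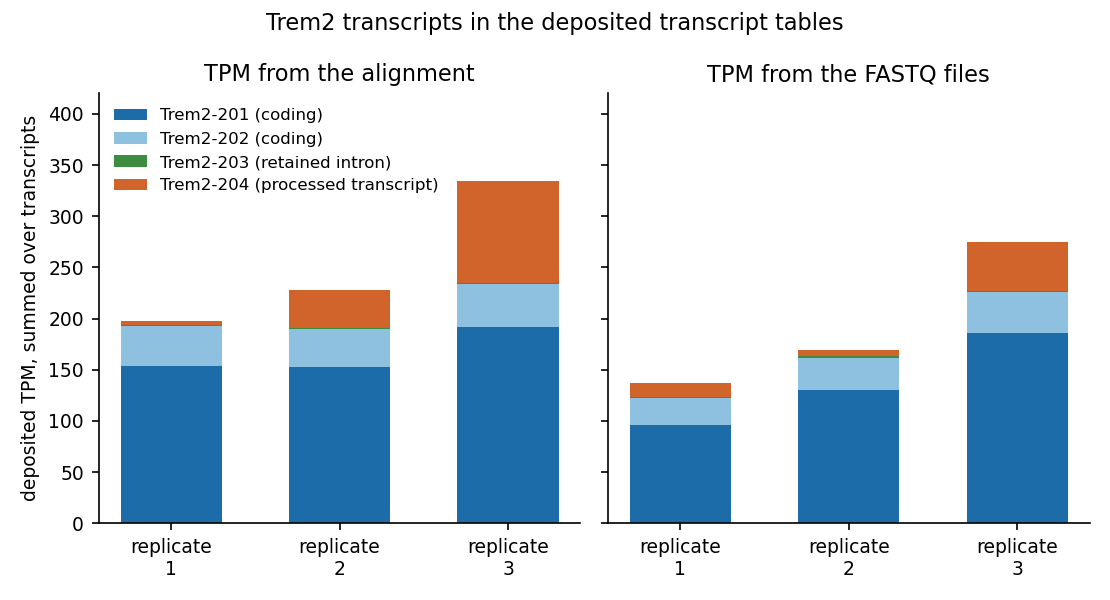
Deposited TPM of the Trem2 transcripts, stacked, in each of the 3 replicates, in the table made from the transcriptome alignment (left) and in the table made from FASTQ files (right). Trem2-204 spans 4.02 to 99.4 TPM in the alignment table, and the coding transcripts differ more between replicates in the FASTQ table, where they sum to 123, 162 and 226 TPM.

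Treml2 had 29.6, 29.1 and 29.7 TPM, from 1528, 2473 and 2601 expected counts. The mean was 29.5 ± 0.331 TPM (SD, n = 3), above 83.7% of protein-coding genes, and no replicate stood out. TREML2 differs from TREM-1 and TREM-2 in that it is not known to pair with DAP12. Its 2 coding transcripts that were above 0 differ at the start of exon 3, and their junctions, in the same notation, are these.
Treml2-201: tggaagtgtatccagGGACCACCACACCAA
Treml2-202: tggaagtgtatccagCCCTCACAACTGAGA
Exon 2 ends at 48302932 in both, and exon 3 starts at 48308057 in Treml2-201 and 177 bases earlier, a multiple of 3 that keeps the frame, in Treml2-202. Treml2-201, of 270 codons, took 77.1 ± 2.69% of the gene's TPM (SD, n = 3), and Treml2-202, of 329 codons, took 22.9%.

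Treml4 had 1.98, 1.63 and 1.01 TPM, from 43, 52 and 37 expected counts. The mean was 1.54 ± 0.491 TPM (SD, n = 3), above 56.1% of protein-coding genes. TREML4 is known in mouse for binding dying cells. Replicate 1 was highest and replicate 3 lowest. On the CPM scale the exact Poisson 95% intervals were 1.33 to 2.48, 1.05 to 1.85 and 0.691 to 1.35 CPM. Those of replicates 1 and 3, the farthest apart, overlapped by a narrow margin. Treml4-201 took 83.8 ± 9.79% of the gene's TPM, with the rest spread over 3 other coding transcripts that each appeared in 1 or 2 replicates.

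Trem3 had 1.03, 0.05 and 0.32 TPM, from 12, 1 and 6 expected counts. Trem3 encodes a DAP12-paired receptor of mouse macrophages whose human counterpart is a pseudogene. The corresponding CPM were 0.513, 0.0272 and 0.159, with exact Poisson 95% intervals of 0.265 to 0.897, 0.000688 to 0.151 and 0.0584 to 0.347. Replicate 1 lay above replicate 2 beyond counting error, and replicate 3 overlapped both. In replicate 2 the CPM was under the floor of 3 counts.

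Trem1 had 0.37, 0.10 and 0.34 TPM, from 16, 7 and 23 expected counts. The CPM were 0.684, 0.190 and 0.610, with exact Poisson 95% intervals of 0.391 to 1.11, 0.0764 to 0.392 and 0.387 to 0.916. The interval of replicate 2 overlapped those of both other replicates by a narrow margin. Trem1 overlaps the pseudogene AC241601.2 on the opposite strand. Whether counting used strand is not given in the sources used here.

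Trem1 is annotated with a full-length transcript, Trem1-201, and a form that skips exon 2, which is 357 bases long. Exon 2 encodes most of the immunoglobulin-like domain in TREM genes, so the junction is shown for both.
Trem1-201: tgttctttgtctcagAAGTCAAAGCTGCCA
Trem1-202: tgttctttgtctcagGTTCTTCAGATGTGT
Trem1-202 was above 0 in replicate 3 only, with 2.06 expected counts, which is under the floor of 3 counts. Trem1-201 took 96.0 ± 7.0% of the gene's TPM (SD, n = 3).

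Trem1 and Trem3 were both lowest in replicate 2, the replicate with the highest summed neutrophil markers. A part of neutrophil RNA in either gene was not tested.

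The order of the levels was Tyrobp, Trem2, Treml2, Treml4, Trem3 and Trem1. Each step was taken within replicates as a log2 ratio of TPM. The order was set by the means of these same values, so a positive mean step was largely built in. Tyrobp was 9.64, 10.6 and 6.63 times Trem2, a log2 ratio of 3.13 ± 0.36 (SD, n = 3). Trem2 was 6.68, 7.83 and 11.3 times Treml2, a log2 ratio of 3.07 ± 0.39. Treml2 was 15, 17.9 and 29.4 times Treml4, a log2 ratio of 4.31 ± 0.51. These 3 steps had the same sign in 3 of 3 replicates and were larger than the spread between replicates. In CPM, which is not corrected for length, they kept their sign at mean log2 ratios of 1.95, 0.91 and 5.62, so the size of each step depends on the length correction.

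The lowest 2 steps were less certain. Treml4 was above Trem3 in 3 of 3 replicates, by a log2 ratio of 2.54 ± 2.18, which rests on replicate 2, where Trem3 had 1 count. The ratio was 1.30 without that replicate and 0.83 with 1 TPM added to both levels. Trem3 over Trem1 was 0.13 ± 1.25, positive in 1 of 3 replicates, so these neighbours did not differ beyond their spread. In CPM Trem3 was below Trem1, with a log2 ratio of −1.72.

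With 3 replicates an exact two-sided sign-flip permutation test cannot go below p = 0.25. That value was reached for each ratio with the same sign in all replicates, and p was 1 for Trem3 over Trem1. The Benjamini-Hochberg adjusted values over the 8 ratios computed were 0.286 and 1. For the steps between neighbours these values lend the order no support, because the order came from the same replicates.

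Summed over the 5 receptors, the TPM was 231, 259 and 366 in replicates 1, 2 and 3. Trem2 made up 85.7, 88.1 and 91.4% of that sum and Treml2 12.8, 11.2 and 8.12%, leaving Treml4, Trem3 and Trem1 under 1% each on average. DAP12 RNA exceeded the receptor sum 8.26, 9.30 and 6.06 times, a log2 ratio of 2.95 ± 0.32 (SD, n = 3), positive in 3 of 3 replicates, and a log2 ratio of 1.31 in CPM. The ratio is of RNA and says nothing of protein.

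The 5 receptor genes lie in 1 cluster of 134 kb on chromosome 17, all read from the plus strand. In GRCm38 the order is Trem1 (48232768 to 48246924), Trem3 (48247777 to 48258841), Treml4 (48264295 to 48275360), Treml2 (48299498 to 48312533) and Trem2 (48346401 to 48354147). B430306N03Rik lies between Treml2 and Trem2, and Treml1, a platelet receptor, closes the cluster. No entry under the symbol Treml6, also listed for the cluster, was found.

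Neighbours in the cluster were alike in level in some places and far apart in others. B430306N03Rik had 32.7, 27.7 and 18.6 TPM, close to Treml2, its neighbour. Treml1, next to Trem2, had 0.20, 0.34 and 0.14 TPM. The genes with the lowest means, Trem1, Trem3 and Treml1, lay at the ends of the cluster. Reads could be shared to a small extent: 6.62% of the 31-base words of B430306N03Rik also occur in other genes, against 0.703% for Trem1, 0.327% for Treml2, 0.0402% for Trem2 and 0% for Tyrobp, Treml4 and Trem3.

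**Figure D3:**
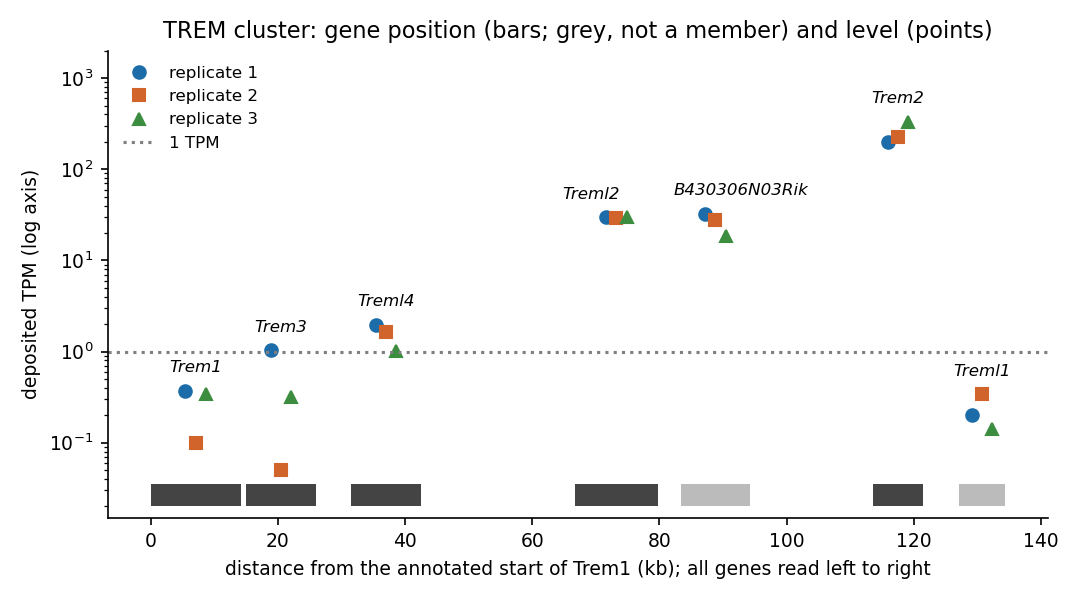
Position of the 7 genes of the cluster, in kb from the annotated start of Trem1, against deposited TPM (log axis), with 1 point per replicate and gene bodies drawn to scale at the bottom. Treml2, B430306N03Rik and Trem2 stand above 10 TPM, and the genes at both ends stand below 1 TPM except Trem3 in replicate 1.

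The spread of a gene between replicates was measured as the SD of log2(TPM + 1) and set beside genes whose mean TPM was within 2-fold. Treml2 had an SD of 0.0157, and 0.494% of 3440 genes of like level had a smaller one. Trem2 had an SD of 0.39, which exceeded those of 93.6% of 807 genes of like level. That value rests on replicate 3, without which it was 0.14, and it was 0.23 in CPM with TMM library sizes and 0.25 with DESeq2 size factors. Without Trem2-204 the SD of Trem2 was 0.17, and 56.5% of genes of like level had a smaller one, while in the FASTQ table it was 0.44 without that transcript. Tyrobp had an SD of 0.17, with 43.5% of 85 genes below it. Treml4 at 0.29, Trem3 at 0.48 and Trem1 at 0.17 had 61.2, 89.3 and 50.9% of genes below them.

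Treml2 also had the lowest SD of the 6 genes in CPM, at 0.0452 with TMM library sizes and 0.0599 with DESeq2 size factors, where Tyrobp came next at 0.12 and 0.14. In the FASTQ table, which is another quantification, the SD of Treml2 was 0.24. Treml2 had 21.3, 26.3 and 29.9 TPM there, lowest in replicate 1, where that table also had the largest median shift over expressed protein-coding genes.

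**Figure D4:**
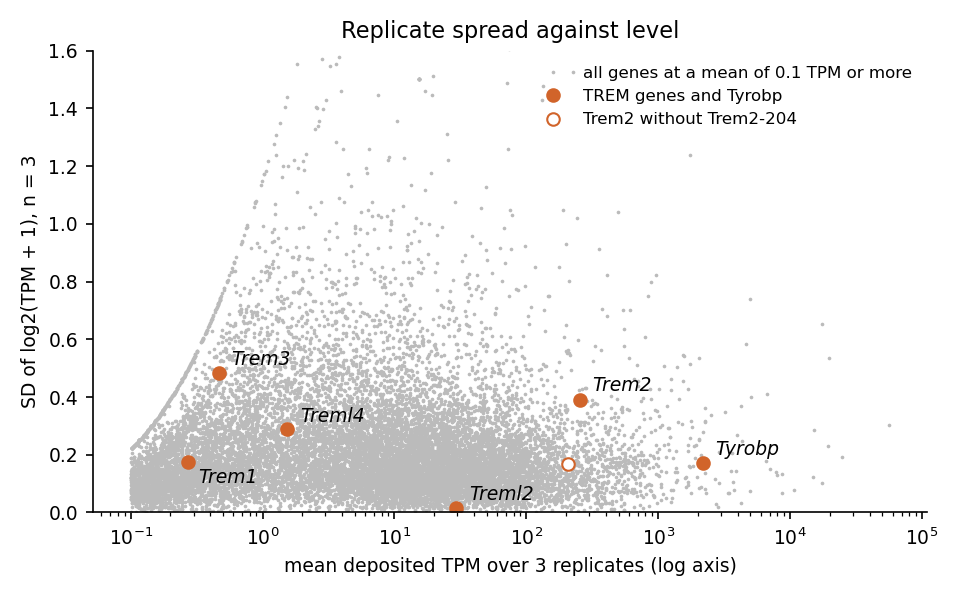
SD of log2(TPM + 1) over 3 replicates against mean TPM (log axis) for genes with a mean of 0.1 TPM or more, with the 6 genes marked. Treml2 lies at the bottom of the cloud at its level, with an SD of 0.0157, and Trem2 near the top, with an SD of 0.39, and 66 of 15330 genes lie above the top of the axis at 1.6.

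Other partners of DAP12 were expressed at lower levels than Trem2. Of 10 other receptors that pair with DAP12, 8 were at 1 TPM or more in all replicates, with a list median of 7.09 TPM. Over protein-coding genes the share at that level was 44.3% and the median 0.342 TPM. Clec5a, a C-type lectin of myeloid cells, led with 68.8, 41.1 and 39.2 TPM. Pilrb1 averaged 38.0 ± 11.0 TPM and Pilrb2 28.9 ± 4.19 TPM (SD, n = 3), both paired receptors of the PILR family. Siglech, a marker of plasmacytoid dendritic cells, averaged 0.217 TPM, and Siglec15, an osteoclast receptor, had 0 counts.

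Downstream of the ITAM, 23 of 25 genes were at 1 TPM or more in all replicates, beside 44.3% of protein-coding genes, with a median of 44.2 TPM. Syk, the kinase recruited by DAP12, had 356, 388 and 411 TPM. Grb2, an adaptor of the Ras pathway, had 360, 488 and 620 TPM, and Lcp2, the scaffold SLP-76, averaged 273 ± 14.5 TPM (SD, n = 3). The genes under 1 TPM were the T cell counterparts of these proteins: Zap70, the kinase related to Syk, had 0 counts, and Lat averaged 0.167 TPM.

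All 12 listed inhibitors of ITAM signalling were at 1 TPM or more, again beside 44.3%, with a median of 34.3 TPM. Sirpa, the inhibitory receptor for CD47, averaged 1291 ± 67.9 TPM, and Ptpn6, the phosphatase SHP-1, 328 ± 40.9 TPM (SD, n = 3). Dok1, an adaptor that restrains kinase signalling, averaged 69.8 ± 1.93 TPM.

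Of 8 reported ligands and coreceptors, 4 were at 1 TPM or more, a share near the 44.3% of protein-coding genes, and the median was 45.9 TPM. Apoe, a lipid carrier that TREM-2 binds, had 2924, 7989 and 4072 TPM, so replicate 2 was well above the others. Lgals3, galectin-3, averaged 1595 ± 130 TPM and Plxna1, a semaphorin receptor that associates with TREM-2, 105 ± 32.5 TPM (SD, n = 3). Apob had 0 counts, and Clu and Pglyrp1 averaged 0.0633 and 0.183 TPM. Pglyrp1 is a reported TREM-1 ligand.

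All 7 genes of the proteases that cut TREM receptors were at 1 TPM or more, beside 44.3% of protein-coding genes, with a median of 92.2 TPM. Psenen and Ncstn, subunits of gamma-secretase, averaged 168 ± 13.5 and 98.8 ± 3.05 TPM (SD, n = 3). Of 10 genes reported to depend on TREM2 in microglia, 9 were at 1 TPM or more, beside the same 44.3%, with a median of 118 TPM. Spp1, osteopontin, had 1832, 1060 and 1406 TPM, while Cst7, an inhibitor of cathepsins, averaged 301 ± 38.8 TPM and Timp2, an inhibitor of metalloproteases, 193 ± 73.2 TPM (SD, n = 3). Itgax, the integrin CD11c, averaged 0.900 TPM. These lists show which partners were present as RNA. Without a contrast they carry no direction.

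**Figure D5:**
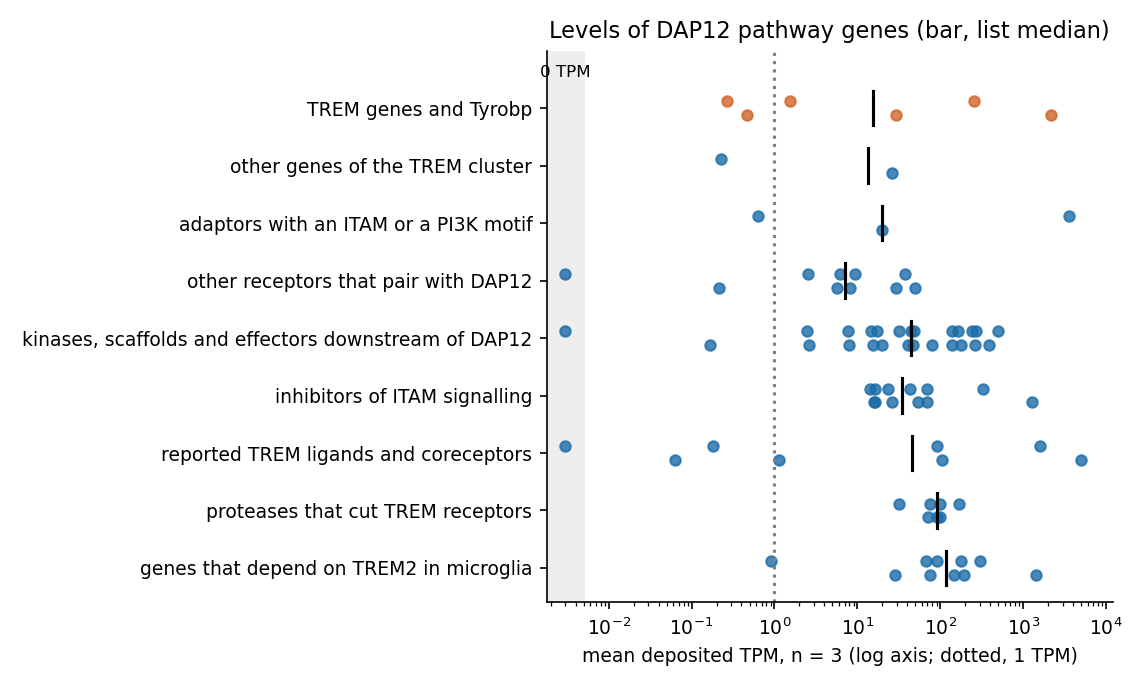
Mean deposited TPM (log axis, n = 3) of the 6 genes and of each measured gene of the 8 lists, 1 point per gene, with the list median as a bar, 1 TPM as a dotted line and genes at 0 in the grey strip. The 12 inhibitors and the 7 proteases all stand above 1 TPM, and 3 genes, Siglec15, Zap70 and Apob, are at 0.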

How the data were processed

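Per the file headers, the authors deposited expected counts and TPM for genes and transcripts from a transcriptome alignment, and estimated counts and TPM for transcripts in a table made from FASTQ files. The tables use mm10 and GENCODE M21. Neither the programs nor the strand setting is given in the sources used here. The sequences were read from the GENCODE M21 transcripts of GRCm38.

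Of 81881 entries in the gene tables, the 26345 that are not GENCODE genes were left out. Among them phiX174 held 0.178, 0.107 and 0.115% of counts in replicates 1, 2 and 3. Levels are means and SDs of TPM, intervals are exact Poisson 95% intervals, and ratios were tested by exact sign-flip permutation. Library scaling used edgeR 4.0.16 (TMM) and DESeq2 1.42.0, with no differential test. Other steps used Python 3.11.15 with pandas 2.3.3 and scipy 1.17.1. The spread measure was also run on simulated counts, with some genes changed in a single library, and the outcome is not given here. That run left out low counts such as those of Trem1 and Trem3. Its changes were larger than that of Trem2 in the alignment table.

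The genes and lists were chosen with earlier results of these data known. The text names all 6 genes and, of each pathway list, the 3 with the highest mean TPM and any that it counts as absent. Marker lists are described by count, with genes named as examples. 1 gene that this rule would name is not reported here.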

Additional observations from a re-analysis of the deposited data

How the results depend on the processing

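Over 35 results, 165 of 193 alternative values held, 26 moved and 2 reversed. A ratio held where it kept its sign, a level or transcript share within 1 SD of the replicates, and a count or SD within 1.5 times. With 3 replicates, leaving out 1 cannot move a mean by 1 SD, so levels and shares held there by construction. A ratio could change much in size and still hold, as Trem2 over Treml2 did from log2 3.07 to 0.91 in CPM. The tally therefore overstates how stable the values were. The step from Trem3 to Trem1 reversed in CPM (log2 −1.72), which is not divided by length. Leaving out each replicate in turn gave −0.54 to 0.69, the lowest without replicate 1. In the table made from FASTQ files, Tyrobp averaged 1671 TPM, Treml2 25.8 TPM, Tyrobp-202 took 99.3% and Treml2-201 68.4% of its gene. With TMM and DESeq2 scaling the SDs of log2 values were 0.233 and 0.251 for Trem2, 0.0452 and 0.0599 for Treml2, 0.291 and 0.287 for Trem3, and 0.281 and 0.279 for Trem1. In the FASTQ table they were 0.328 for Tyrobp, 0.237 for Treml2 and 0.121 for Treml4. A pseudocount of 0.1 gave 0.466 for Treml4, 1.46 for Trem3 and 0.69 for Trem1. Trem2 without Trem2-204 had 0.167. Leaving out each replicate gave SDs of 0.0840 to 0.239 for Tyrobp (lowest without replicate 1), 0.144 to 0.534 for Trem2 (replicate 3), 0.00366 to 0.0208 for Treml2 (replicate 2), 0.127 to 0.402 for Treml4 (replicate 3), 0.233 to 0.673 for Trem3 (replicate 1) and 0.0226 to 0.224 for Trem1 (replicate 2). At 5 TPM, 4 of the other DAP12 receptors passed. The cause of these shifts was not tested, apart from the length division. Setting aside Trem2-204 and the ratios of Tyrobp to Fcer1g and Hcst were chosen after seeing the data. No paired analysis was possible because all 3 samples belong to 1 group. Depth limits Trem1, Trem3 and Treml4, which rest on 52 counts or fewer per replicate.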

Other observations

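Among the genes reported to depend on TREM2 in microglia, some varied more between replicates than Trem2 itself. Clec7a, the beta-glucan receptor Dectin-1, had 27.8, 115 and 80.9 TPM in replicates 1, 2 and 3, and 99.4% of genes of like level had a smaller SD of log2(TPM + 1). Cd9, a tetraspanin, had 37.7, 15.4 and 32.2 TPM. Lpl, lipoprotein lipase, had 116, 239 and 179 TPM. These genes were named after their values were seen, and their orders over the replicates differ from that of Trem2.

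B430306N03Rik differed between the tables in its transcripts. B430306N03Rik-203, annotated as a target of nonsense-mediated decay, took 5.67 ± 2.48% of the gene's TPM in the alignment table (SD, n = 3) and 21.8% in the table made from FASTQ files.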
